A study of Mus musculus with 6 samples.

Results

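The genes described here are 9 named members of the p53 and apoptosis pathway. They are Trp53, which encodes p53 itself, its regulators and targets Mdm2, Ccng1 and Cdkn1a, the BCL2 family genes Bax, Bbc3 and Pmaip1, the death receptor gene Fas, and the caspase gene Casp9. Their probe sets, each of which reads 1 transcript region, were those that the platform annotation gives to one of these genes alone. This gave 14 probe sets of 7 genes, of 45037 probe sets and 18193 genes in all. The annotation used here names no probe set for Trp53 or Bax, so no expression value is given for either, and every count below is over the other 7 genes.

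The samples are 3 arrays of conditional knockout embryos (cKO) and 3 arrays of wild-type embryos (WT), all of dorsal telencephalon, the part of the forebrain that forms the cerebral cortex, at E14.5, a stage when cortical neurons are being born. In cKO the histone H3 lysine 9 methyltransferase ESET, encoded by Setdb1, was deleted with Emx2Cre, a recombinase driven from a gene of dorsal forebrain progenitors, so that blood, vessel and meningeal cells of the dissected tissue lie largely outside the deleted lineage. Both groups are labelled male and of the C57BL\6 background, and the labels do not say whether WT embryos carried Cre. The comparison asks whether transcripts of p53 targets and apoptosis genes differ between cortex without and with ESET.

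p53 is a transcription factor that is held at a low level by the ubiquitin ligase MDM2 and accumulates when DNA is damaged or other stress pathways are active. It then raises transcription of genes that stop the cell cycle, such as Cdkn1a, of genes that open the mitochondrial route to apoptosis, such as Bax, Bbc3 and Pmaip1, of the death receptor gene Fas, and of Mdm2 itself, which closes a feedback loop. Much of the control of p53 is on the protein and not on its transcript, so transcript levels of its targets are a usual readout. In the embryonic cortex, loss of neural progenitors to p53-dependent apoptosis is known from several mutants that disturb DNA repair or mitosis.

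The DNA element that p53 binds consists of a pair of decamers, each with a central C and G that contact the protein. From RefSeq, 11 promoter windows of 8 of these genes were used. They run from 250 bases before to 50 bases after each annotated start (GRCm38.p6) and were searched for a pair of decamers of the p53 consensus with a spacer of 0 to 13 bases, requiring the central C and G in each. The consensus reads alike on both strands. The closest matches with 3 mismatches or fewer are shown because p53 is known to act through elements of this kind. The decamers are in capitals, and 5 flanking bases and any spacer are in lower case.
Cdkn1a, chr17:29090901-29090942, plus strand: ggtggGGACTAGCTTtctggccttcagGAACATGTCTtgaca
Ccng1, chr11:40755457-40755486, minus strand: aggccAGACCTGCCCGGGCAAGCCTtggca
Bax, chr7:45467074-45467104, minus strand: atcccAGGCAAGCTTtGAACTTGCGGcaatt
Bbc3, chr7:16309481-16309510, plus strand: cccgaCTGCAAGCCCCGACTTGTCCccagc
Bbc3, chr7:16310151-16310182, plus strand: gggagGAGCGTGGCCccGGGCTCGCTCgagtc
Trp53, chr11:69580279-69580308, plus strand: cggaaGGACTTGCCCTTACTTGTTAtggcg

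The match in Cdkn1a had 0 mismatches, which 0.0731% of the 32851 windows of all genes reached, and began 73 bases before an annotated start. Its spacer was 12 bases, where at most 13 were allowed. The match in Ccng1 had 1 mismatch, a level reached by 0.627% of windows, and a spacer of 0 bases, and began 195 bases before the start. The match in Bax had 2 mismatches (4.09% of windows at that level or better), and those in Bbc3 and Trp53 had 3 each (15.6% of windows). The closest matches in the windows of Mdm2 and Casp9 had 4 mismatches and that of Fas had 5, levels that 40.4% and 68.7% of all windows reached, and they are not printed. A further window each of Cdkn1a and Bbc3 had 5 and 6 mismatches at best. These are matches of letters in a short window and were not tested for binding, and p53 elements in introns or further upstream lie outside it.

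Before the results, 2 arrays call for care. WT 3 had an Xist intensity of 17294 and cKO 3 of 8811, against 34.1 to 59.0 on the other 4 arrays, although all are labelled male. The Y-linked gene Eif2s3y read 22.2 on WT 3 and 961 on cKO 3, against 1927 to 2186 on the others. Summed intensities of 10 erythroid markers were 74190 on cKO 3 and 69495 on WT 3, against 11296 to 17213 on the others, and 9 markers of meninges and mesenchyme summed to 2243 on cKO 3, against 352 to 724 on the others. Of the 11 measured markers of dorsal telencephalon all were present above the pseudocount of 16 on at least 1 array, with summed intensities of 56151 to 64235 in cKO and 62567 to 66805 in WT. Of these, 3 were lower without overlap at an unadjusted p below 0.05, a p at which 4.39% of all genes were lower, and 0 passed over all genes. The 3 were Emx2 at a log2 fold change of -0.83 (limma adjusted p = 0.0714), Eomes at -0.63 and Fezf2 at -0.54. Emx2 is also the gene that Emx2Cre is driven from, and whether the Cre allele changed its reading was not tested. Of the 11, 7 had a log2 fold change below 0 and 4 above, and 1 of the latter, Neurog2 at 0.13, was higher without overlap. Of 8 markers of ventral telencephalon, 2 were higher at an unadjusted p below 0.05, against 5.17% of all genes, and 0 passed. These 2 were Gad1 at 0.48 and Nkx2-1 at 1.01. The 8 summed to 4132 to 4516 in cKO and 3350 to 4669 in WT. The dorsal and ventral markers named here were picked after their values were seen. Markers of endothelium summed to 1416 to 1579 in cKO and 1777 to 1947 in WT. Of these 9 markers, 4 (44.4%) were lower at an unadjusted p below 0.05, against 4.39% of all genes, and 0 passed the threshold over all genes. Those of microglia overlapped, at 1221 to 1727 in cKO and 1483 to 1711 in WT. The part of these cell types in the results below was not tested, and in whole tissue fewer cells of a type and less RNA per cell cannot be told apart.

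Setdb1, on chromosome 3, served as a check of the genotype and on its brightest probe set read 704, 696 and 499.9 on cKO 1 to 3 and 1162, 1185 and 1033 on WT 1 to 3. Every cKO array was below every WT array. Its log2 fold change was -0.83 (SE 0.18), which did not pass the threshold of 0.05 over all probe sets (limma, adjusted p = 0.237), and the labels do not place this probe set inside or outside the deleted part. Its dimmer probe sets read 10.6, 23.8 and 34.2 in cKO and 56.5, 70.3 and 74.8 in WT on 1458215_at, and 33.96, 17.9 and 48.7 in cKO and 35.4, 40.7 and 78.3 in WT on 1416670_at, where the groups overlapped.

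None of the 7 measured p53 targets and apoptosis genes passed the threshold between cKO and WT. Of the 14 probe sets, limma called 0 higher and 0 lower at an adjusted p below 0.05 (lowest adjusted p = 0.176), where 0.275% of all 45037 probe sets were called, 0.224% higher and 0.0511% lower. At an unadjusted p below 0.05, 1 of the 14 was higher and 3 were lower, against a background of 4.57% and 3.33% of all probe sets. With only the brightest probe set of each gene, 1 of the 7 was higher and 1 lower at that p, against 5.17% and 4.39% of all genes. The cKO and WT arrays did not overlap on 1 probe set that was higher in cKO, that of Fas, and on 4 that were lower, those of Pmaip1, 2 of the 3 of Casp9 and 1 of the 3 of Mdm2. Over all probe sets 7.47% were higher and 6.07% lower without overlap. Of these 5 probe sets, 4 had a group mean of 100 or less. The median log2 fold change of the 14 was -0.046, against 0.018 over all probe sets.

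**Figure D1:**
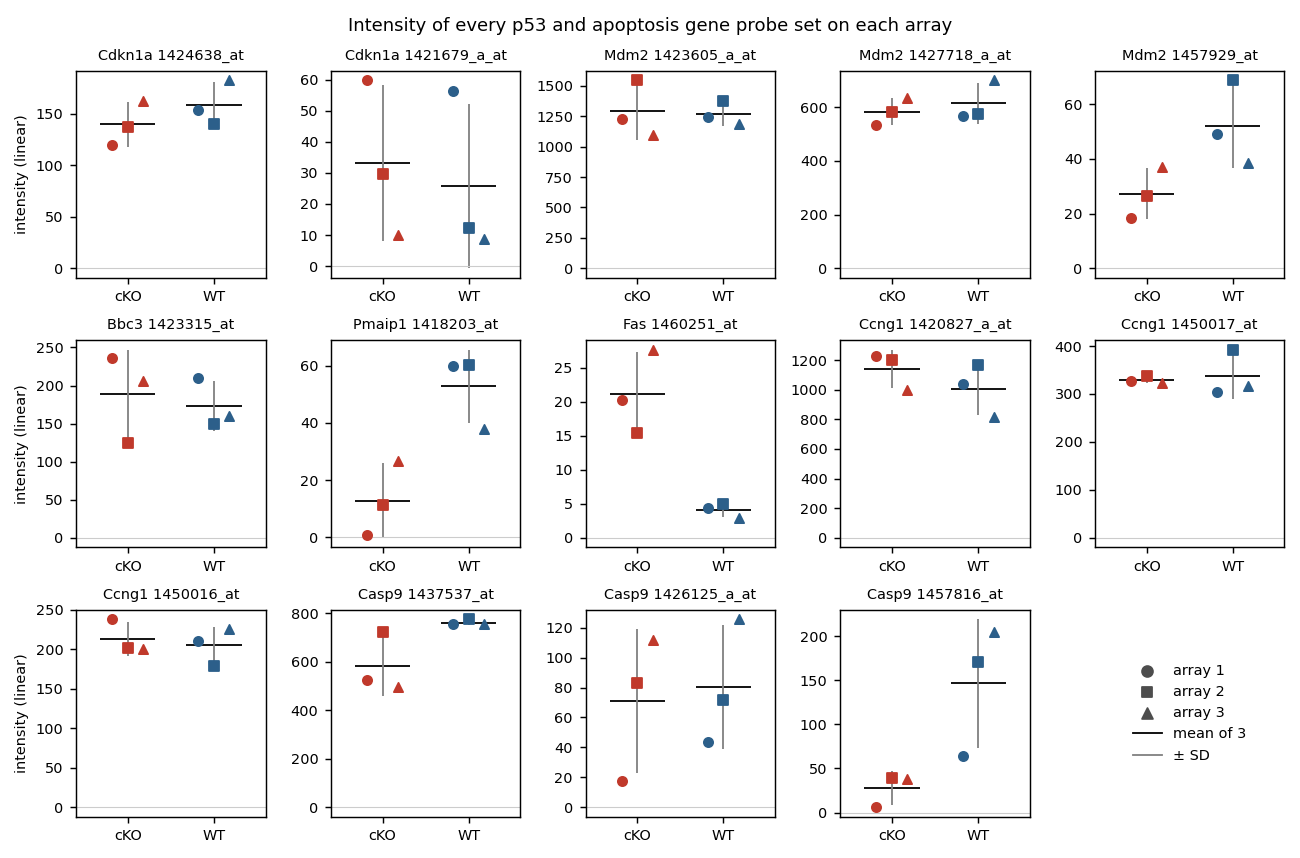
Intensity on a linear scale (y axis, a separate scale in each panel) of the 14 probe sets on the 3 cKO and 3 WT arrays. Symbols mark the array number, horizontal lines the mean of 3 arrays and vertical lines ± SD. The groups part on Fas (15.4 to 27.7 in cKO and 2.86 to 5.01 in WT), Pmaip1, 2 probe sets of Casp9 and the dimmest of Mdm2, and overlap on the other 9.

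Mdm2 (chromosome 10, 117688875 to 117710758), the ubiquitin ligase that degrades p53 and is itself a p53 target, had nearly equal levels in cKO and WT on its brightest probe set, 1423605_a_at. It read 1226, 1547 and 1097 on cKO 1 to 3 and 1241, 1372 and 1189 on WT 1 to 3. The cKO arrays spanned the whole WT range, with cKO 2 highest and cKO 3 lowest of the 6. This gave a log2 fold change of 0.013 (SE 0.18, 95% interval -0.41 to 0.44, limma adjusted p = 0.999).

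A second probe set of Mdm2, 1427718_a_at, read 534, 583 and 634 in cKO and 567, 574 and 701 in WT, with a log2 fold change of -0.067 (95% interval -0.44 to 0.31). The groups overlapped, and on this probe set array 3 was the highest of each group, where on the first it was the lowest. The third, 1457929_at, was dim, at 18.3, 26.3 and 36.9 in cKO and 48.9, 68.8 and 38.3 in WT. Here every cKO array lay below every WT array, though cKO 3 and WT 3 were close together. Its log2 fold change of -0.65 (SE 0.24) did not pass (limma adjusted p = 0.561), and without both arrays numbered 3 it was -0.96 (adjusted p = 0.421).

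Ccng1 (chromosome 11, 40748552 to 40755309), which encodes cyclin G1, a p53 target that acts with the phosphatase PP2A on MDM2, gave a like picture on 3 probe sets. The brightest, 1420827_a_at, read 1230, 1202 and 995 in cKO and 1035, 1169 and 818 in WT. The groups overlapped, and array 3 was the lowest of each. Their log2 fold change was 0.19 (SE 0.19, 95% interval -0.26 to 0.64, limma adjusted p = 0.921).

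On 1450017_at Ccng1 read 327, 338 and 324 in cKO and 304, 393 and 317 in WT, and on 1450016_at it read 238, 202 and 201 in cKO and 209.96, 179 and 226 in WT. Both overlapped, with log2 fold changes of -0.025 (95% interval -0.39 to 0.34) and 0.056 (95% interval -0.32 to 0.43). Ccng1 is also the measured gene whose promoter window holds the match to the p53 consensus with 1 mismatch printed above.

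Cdkn1a (chromosome 17, 29090979 to 29100722) has the promoter match with 0 mismatches given above, which was not tested for binding. It encodes p21, the inhibitor of cyclin-dependent kinases through which p53 halts the cell cycle. On its brighter probe set, 1424638_at, it read 119, 137 and 163 in cKO and 153, 140.4 and 183 in WT. The groups overlapped, and array 3 was the highest of each. As a log2 fold change the difference was -0.17 (SE 0.17, 95% interval -0.59 to 0.25, limma adjusted p = 0.925).

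The other Cdkn1a probe set, 1421679_a_at, varied more within each group than between them. It read 59.9, 29.6 and 9.88 in cKO and 56.3, 12.3 and 8.74 in WT, so that the arrays numbered 1 were high and those numbered 3 low in both groups. Its log2 fold change of 0.28 had a 95% interval from -1.005 to 1.56, and it therefore bounds a change only loosely.

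Bbc3 (chromosome 7, 16308398 to 16318334) encodes PUMA, a BH3-only protein that p53 induces and that frees BAX and BAK to permeabilise mitochondria. Its single probe set, 1423315_at, read 237, 124 and 206 in cKO and 210.4, 149.99 and 159.6 in WT. The highest and the lowest of the 6 values were both cKO arrays. A log2 fold change of 0.084 (SE 0.26, 95% interval -0.54 to 0.71, limma adjusted p = 0.989) resulted, and without both arrays numbered 3 it was -0.044.

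Over the 7 probe sets of Cdkn1a, Mdm2, Bbc3 and Ccng1 with group means above 100, log2 fold changes ran from -0.17 to 0.19. The 95% intervals, each for its own probe set and not adjusted for their number, lay between -0.59 and 0.71, or 0.665-fold and 1.64-fold on the scale of log2(intensity + 16). These ranges leave out Casp9 1437537_at, the other probe set of the 14 with group means above 100. It was at -0.40 (95% interval -0.83 to 0.030), and its groups did not overlap.

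**Figure D2:**
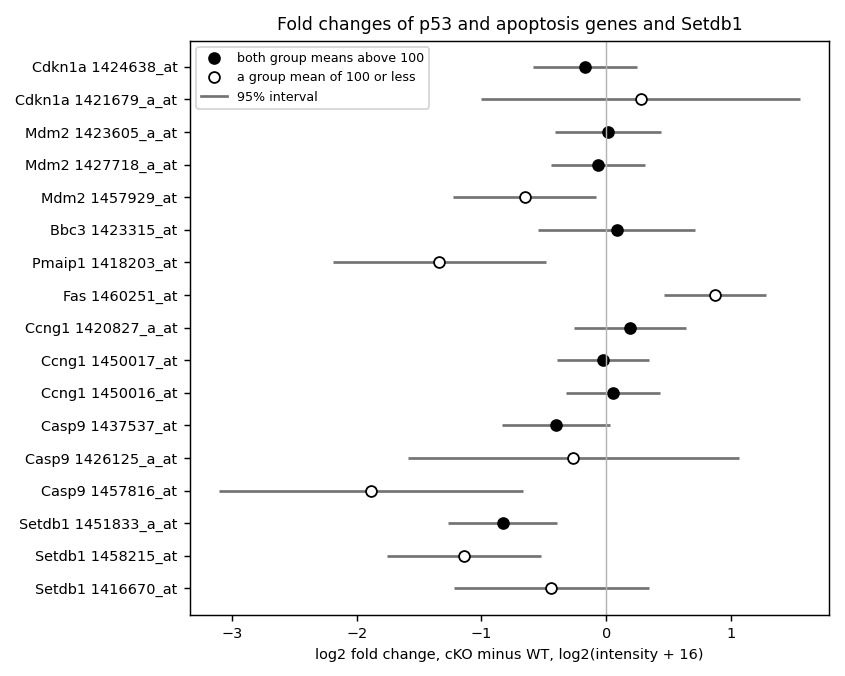
Log2 fold change (x axis, cKO minus WT on the scale of log2(intensity + 16)) of the 14 probe sets and the 3 of Setdb1, with lines for the 95% interval of the limma fit. Filled points have both group means above 100 and open points do not. Among the 14, the intervals of Fas, Pmaip1, 1 probe set of Casp9 and 1 of Mdm2 lie off 0, and none of these passed the threshold over all probe sets.

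Pmaip1 (chromosome 18, 66458604 to 66465558) encodes NOXA, a BH3-only protein that binds MCL1 and is another p53 target. Its probe set, 1418203_at, read 0.704, 11.1 and 26.6 in cKO and 60.1, 60.3 and 37.9 in WT. Every cKO array was below every WT array, and the arrays numbered 3 were the closest to each other. Pmaip1 had a log2 fold change of -1.34 (SE 0.36, 95% interval -2.19 to -0.49) and did not pass (limma adjusted p = 0.350). The cKO mean of 12.8 ± 13.02 (SD, n = 3) lay below the pseudocount of 16, against 52.8 ± 12.9 in WT, so the pseudocount sets its size, and the value was -2.66 with a pseudocount of 1 and -0.61 with 64. Without both arrays numbered 3 it was -1.84 (adjusted p = 0.292).

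Fas (chromosome 19, 34290647 to 34327775), the death receptor that recruits FADD and caspase 8, was the gene of this set with the smallest p. Its probe set, 1460251_at, read 20.2, 15.4 and 27.7 in cKO and 4.44, 5.01 and 2.86 in WT. The groups were well apart, with cKO 3 the highest and WT 3 the lowest of all, yet the WT values lay far under the pseudocount and between 16.1% and 20.3% of probe sets of an array read below 16. The log2 fold change was 0.87 (SE 0.17, 95% interval 0.46 to 1.28), and it did not pass over all probe sets (limma adjusted p = 0.176) or, with 1 probe set per gene, over all genes (adjusted p = 0.0935). It came to 2.10 with a pseudocount of 1 and 0.32 with 64. Without both arrays numbered 3 it was 0.70 (adjusted p = 0.434).

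Casp9 (chromosome 4, 141793612 to 141815978) encodes the caspase that the APAF1 apoptosome activates, the first protease of the mitochondrial route. On its brightest probe set, 1437537_at, it read 523, 721 and 498 in cKO and 755, 776 and 754 in WT. All cKO arrays lay below all WT arrays, but cKO 2 was much nearer to WT than to the other cKO arrays, and the spread was 122 in cKO and 12.2 in WT (SD, n = 3 each). The log2 fold change was -0.40 (SE 0.18, 95% interval -0.83 to 0.030, limma adjusted p = 0.679), and it ran from -0.56 without cKO 2 to -0.30 without cKO 3.

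The other Casp9 probe sets were dimmer. On 1457816_at, cKO arrays read 5.96, 38.8 and 38.5 and WT arrays 64.6, 170.04 and 204, again with no overlap. Its log2 fold change of -1.89 (SE 0.51) was the largest of the 14 probe sets but did not pass (limma adjusted p = 0.356), and it was -1.82 without both arrays numbered 3 (adjusted p = 0.561). On 1426125_a_at, cKO arrays read 17.9, 82.8 and 112 and WT arrays 43.8, 71.4 and 126, the groups overlapped, and the log2 fold change was -0.26 (95% interval -1.59 to 1.06). Which Casp9 transcripts each of them reads was not determined.

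To set these genes in their pathway, 5 lists were described in a table with the brightest probe set of each of 18193 genes. Of 122 genes written, 111 were measured, and 0 of them passed the threshold over all genes in either direction (limma, lowest adjusted p = 0.133), where 0.627% of all genes did, 0.385% higher and 0.242% lower. At an unadjusted p below 0.05, 1 was higher and 8 were lower, or 0.901% and 7.21% of those measured, against 5.17% and 4.39% of all genes. The groups did not overlap for 5 higher and 12 lower genes of the 111, against 7.9% and 7.64% of all genes. The lists share some genes, so their counts do not add up to these. The median log2 fold change of the 111 was 0.011, against 0.0068 over all genes.

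**Figure D3:**
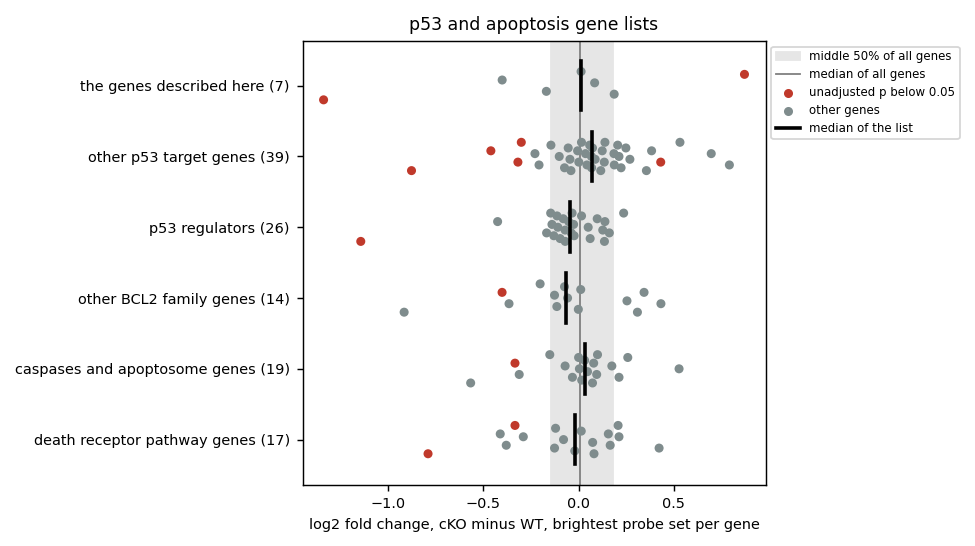
Log2 fold change (x axis, cKO minus WT) of each measured gene in the set described here and in 5 lists, with the number measured in brackets. Thick bars are list medians, the grey band holds the middle 50% of all genes, and red points have an unadjusted p below 0.05. The list medians run from -0.066 to 0.069.

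The other p53 target genes, which act in growth arrest, DNA repair, metabolism and apoptosis, had a median log2 fold change of 0.069 over 39 measured genes, with 26 above 0 and 13 below, and 1 was higher and 4 were lower at an unadjusted p below 0.05. The median was 0.015 without cKO 3 and 0.12 without cKO 2. Ak1, an adenylate kinase that balances adenine nucleotides, read 478, 613 and 424 in cKO and 868, 1067 and 869.9 in WT. These groups were well apart, and its log2 fold change was -0.88 (SE 0.18, limma adjusted p = 0.133). It passed in 2 alternative fits, with eBayes trend and robust settings (adjusted p = 0.0299) and without the dimmer genes (adjusted p = 0.0307).

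Among the other members of that list, the polo-like kinase gene Plk2 read 1551, 1729 and 1526 in cKO and 2234, 2418 and 1991 in WT, a log2 fold change of -0.46 (limma adjusted p = 0.293). Its relative Plk3 had the opposite sign, with 189, 173 and 151 in cKO and 126, 117 and 124 in WT, a log2 fold change of 0.43 (limma adjusted p = 0.320). Neither pair of groups overlapped. Fbxw7, the substrate receptor of a ubiquitin ligase for cyclin E and MYC, was at -0.32 (adjusted p = 0.415).

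The p53 regulators, which are kinases, ubiquitin ligases, acetyltransferases and p53 family members, had a median log2 fold change of -0.045 over 26 measured genes, with 9 above 0 and 17 below, and 0 were higher and 1 was lower at an unadjusted p below 0.05. That gene was Trp73, a p53 family member known in the cortex from Cajal-Retzius neurons, with 116, 86.1 and 95.3 in cKO and 253, 321 and 163 in WT. Its groups did not overlap, and its log2 fold change was -1.14 (SE 0.25, limma adjusted p = 0.163). Mdm4, the partner of MDM2 that masks the activation domain of p53, was at 0.24 (adjusted p = 0.812) with overlapping groups. Ppp1r13b, a p53-binding protein of the ASPP family, was at -0.43, and Kat5, an acetyltransferase of the DNA damage response, at -0.17.

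The other BCL2 family genes had a median log2 fold change of -0.066 over 14 measured genes, with 0 higher and 1 lower at an unadjusted p below 0.05. Bcl2, the founding inhibitor of mitochondrial apoptosis, read 703, 672 and 891 in cKO and 981, 933 and 1077 in WT. Its groups did not overlap, and its log2 fold change was -0.40 (SE 0.15, limma adjusted p = 0.463). Of the BH3-only genes, Bmf was at 0.34, Hrk, a BH3-only gene of neurons, at 0.43, and Bik at -0.92. Each was short of the threshold (limma adjusted p = 0.633, 0.661 and 0.523) and had overlapping groups. Bik was dim, with 12.0, 7.90 and 49.95 in cKO and 49.2, 58.2 and 45.3 in WT, partly under the pseudocount.

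Caspases and apoptosome genes had a median log2 fold change of 0.032 over 19 measured genes. At an unadjusted p below 0.05, 0 were higher and 1 was lower. Casp8, the initiator caspase of death receptors, read 138, 117 and 141 in cKO and 164, 183 and 164 in WT, without overlap, for a log2 fold change of -0.33 (SE 0.13, limma adjusted p = 0.472). Birc5, a mitotic protein of the inhibitor of apoptosis family, was at -0.31, the inflammatory caspase gene Casp1 at -0.57 and the inhibitor Birc3 at 0.53, both of the last at intensities below 50.

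Death receptor pathway genes had a median log2 fold change of -0.020 over 17 measured genes, with 0 higher and 2 lower at an unadjusted p below 0.05. This median was 0.068 without WT 1 and -0.14 without WT 3. Ngfr, the p75 neurotrophin receptor, read 149, 198 and 227 in cKO and 371, 299 and 348 in WT. Its groups did not overlap, and its log2 fold change was -0.79 (SE 0.18, limma adjusted p = 0.183). Fasl, the ligand of Fas, was dim, with 37.7, 37.9 and 33.3 in cKO and 14.2, 25.96 and 30.7 in WT. All cKO arrays lay above all WT arrays, as for Fas, with a log2 fold change of 0.42 (SE 0.19, limma adjusted p = 0.558). Tradd, an adaptor of TNF receptors, was at -0.41. The other lower gene was Casp8, given above.

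Genes whose log2 values followed those of Fas and Pmaip1 most closely over the 6 arrays, which share the genotype difference and the array 3 features, were Napepld, Tpbg and Nipal3 for Fas (Pearson r = 0.995, 0.989 and 0.984) and Galnt9, Gsdme and Tmtc1 for Pmaip1 (r = 0.999, 0.988 and 0.985). In the table of 18193 genes, 78 genes had an r over 0.95 with Fas and 34 with Pmaip1. Of these, Tmtc1 read 89.6, 139.8 and 203 in cKO and 437, 428 and 364 in WT, and Napepld read 356, 331 and 416 in cKO and 246, 254 and 247 in WT. Both parted the groups, which follows from how they were picked, because Fas and Pmaip1 part the groups themselves. Neither passed the threshold over all genes (limma adjusted p = 0.0983 and 0.213).

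**Figure D4:**
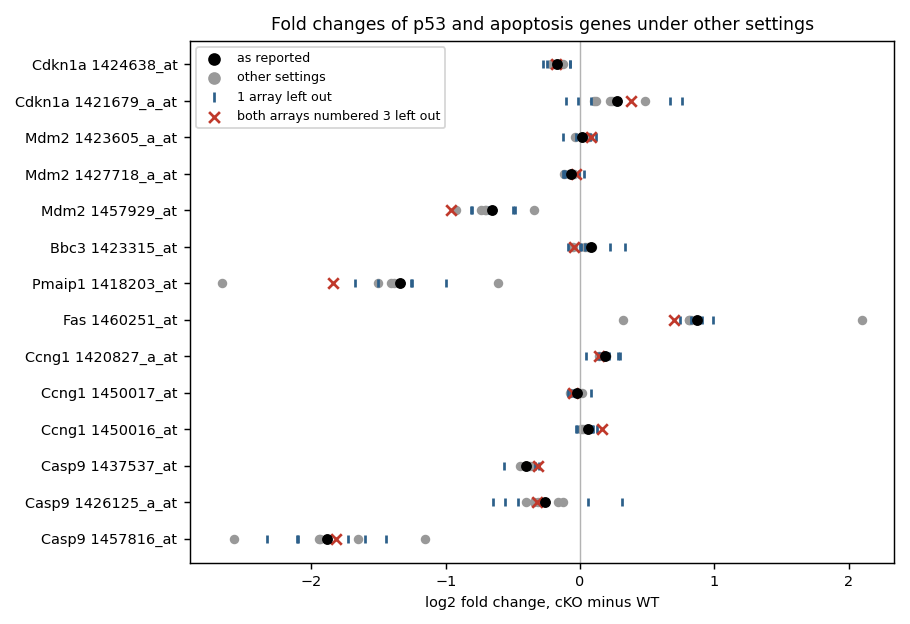
Log2 fold change (x axis, cKO minus WT) of the 14 probe sets as reported (black), under other settings of the processing (grey), with 1 array left out (blue bars) and without both arrays numbered 3 (red crosses). Fas lies above 0, and Pmaip1, the dimmest Mdm2 probe set and 2 of Casp9 lie below 0, in every fit shown. Of the other 9 probe sets, 7 fall on both sides of 0.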

How the data were processed

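RNA of 6 embryonic dorsal telencephalon samples was measured on single-colour Affymetrix arrays. The deposited values are linear intensities, 1 per probe set and array, made with the Affymetrix Expression Console per the submitters' processing notes. The program's version and how it summarised probes were not stated there. Mean intensities trimmed by 2% at each end were 497.2 to 497.7 on every array, so a common scaling had been applied, and no detection calls were used here. The number of arrays limits the precision.

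Intensities were taken to log2(intensity + 16) without further normalization (array medians differed by 0.33). All 45037 probe sets entered a two-sided linear model of genotype (limma 3.58.1, functions lmFit and eBayes, R 4.3.3), with Benjamini-Hochberg adjustment over all of them and a threshold of 0.05. A fold change is cKO minus WT, SE is the moderated standard error, and intervals are 95% from the same fit. The pseudocount makes fold changes of dim probe sets smaller than their intensity ratios. Lists were described in a table with the brightest single-gene probe set of each of 18193 genes, adjusted over these, and without a set test. Genes came from the platform annotation, which gives 1 gene to 34945 probe sets, several to 932 and none to 9160. Gene positions and promoter windows are those of RefSeq, GRCm38.p6. The fit was tested on simulated arrays with independent noise on each array and probe set. Deviations shared between arrays, as between those numbered 3, were not simulated.

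Named are the 9 genes with all their probe sets, Setdb1, up to 4 genes with the smallest p of each of 5 lists, and the 3 genes most correlated with each of 2 members with the smallest p. The members and lists were chosen with earlier results of these data known. Design text speaks of separate embryos, taken as 1 per array. On cKO 3 both Xist and Eif2s3y were read, as given above, and whether that array holds 1 embryo was not tested. Alternatives were quantile normalization, centring, leaving out dim probe sets, other pseudocounts, eBayes trend and robust, array weights, leaving out probe sets ending in _x_at or _s_at, blocks, leaving out arrays, and 1 probe set per gene.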

Additional observations from a re-analysis of the deposited data

How the results depend on the processing

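In all 18 alternatives 0 of the probe sets fitted passed the threshold, which were 14 except for 8 without dim probe sets and 7 with 1 probe set per gene (lowest adjusted p = 0.0818, for Casp9 1457816_at with the replicate block). Of 239 recomputed fold changes, 17 had the other sign than reported, all on 7 probe sets near 0 or widely spread. Outside the fits that left out 1 array these were Mdm2 1423605_a_at at -0.036 with centring on array medians, Bbc3 at -0.049 and Ccng1 1450017_at at 0.015 with array weights, and Bbc3 at -0.044 without both arrays numbered 3. With 1 array left out, Bbc3 ran from -0.088 to 0.34, Cdkn1a 1421679_a_at from -0.11 to 0.76, Casp9 1426125_a_at from -0.64 to 0.31, Mdm2 1423605_a_at from -0.12 to 0.12, Mdm2 1427718_a_at from -0.13 to 0.030, Ccng1 1450016_at from -0.031 to 0.12 and Ccng1 1450017_at from -0.093 to 0.083.

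Over the whole table, 124 probe sets passed, against 252 without dim probe sets, 257 with eBayes trend and robust, 205 with a pseudocount of 64, 48 with a pseudocount of 1, 8 without both arrays numbered 3 and 19 to 36 with 1 array left out. The other p53 target genes gave 1 call, Ak1, without dim probe sets and 1 with eBayes trend and robust, and the other 4 lists 0 in every fit. Replicate numbers were not taken as pairs in the reported fit. Deviations from group means of same-numbered arrays correlated at 0.079, 0.19 and 0.41 for numbers 1, 2 and 3. Those of cKO 1 with WT 2 and of cKO 2 with WT 1 correlated at 0.16 and 0.11. For cKO 3 with WT 1 and WT 2 the values were -0.16 and -0.31, and for WT 3 with cKO 1 and cKO 2 they were -0.21 and -0.27. The arrays numbered 3 thus shared deviations, and with these 2 as a block 108 probe sets passed. The replicate block left 7 probe sets of the whole table past the threshold. The causes were not tested. With 1 array left out, list medians ran from 0.015 to 0.12 for the other p53 target genes, -0.090 to -0.028 for p53 regulators, -0.15 to -0.0088 for the other BCL2 family genes, -0.017 to 0.078 for caspases and apoptosome genes and -0.14 to 0.068 for death receptor pathway genes.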
